A study of Mus musculus with 9 samples.

Results

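Genes of the machinery that carries proteins into mitochondria were examined in the circulating blood of E12.5 mouse embryos that carried no, 1 or 2 copies of the Cbfb allele ΔC95. A gene was a member if its symbol in the array's annotation began with Timm or Tomm and a digit, or if it was Samm50, Mtx1, Mtx2, Pam16, Grpel1, Grpel2, Hspa9, Pmpca, Pmpcb or Dnajc19. Each had to be named alone by a probe set, a group of short probes read together, and the brightest such probe set, by its mean of all 9 arrays, stood for the gene. This gave 32 members among the 18193 genes that a probe set named alone. Dnajc19, Tomm5 and Tomm6 were named only together with another gene and are therefore not members. Means over the 9 arrays were at least 5 on the log2 scale for 29 members and lower for Timm8a2, Timm9 and Tomm20l, whose probe sets were dim.

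Matings between Cbfb+/ΔC95 mice gave embryos of 3 genotypes, all of mixed C57BL6/129SvEv strain: Cbfb+/+ (wild-type), Cbfb+/ΔC95 (heterozygous) and CbfbΔC95/ΔC95 (homozygous). The labels do not spell out ΔC95; according to its title, the study asked what the C-terminus of CBFβ-SMMHC does in embryonic blood formation and leukemia. That protein is a leukemia fusion of CBFβ, which partners the DNA-binding RUNX subunits of core binding factor, with smooth muscle myosin heavy chain. Each array held RNA of blood pooled from 8 to 10 embryos of a genotype, and 3 arrays were hybridized per genotype. Whether these came from separate pools is not stated, and p-values here reflect only how far arrays of a genotype differ, which may be technical.

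Nearly all mitochondrial proteins are made in the cytosol and imported. The TOM complex of the outer membrane holds the receptors and the entry channel, and the SAM complex with the metaxins inserts barrel-shaped proteins into that membrane. Small TIM chaperones escort hydrophobic proteins across the space between the membranes to the TIM22 carrier translocase, while TIM23 with its PAM motor pulls proteins with a presequence into the matrix, where the processing peptidase MPP cuts the presequence off. Red cell precursors depend on this route, because several enzymes of heme synthesis work inside mitochondria.

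Red cell markers were high in every array. The summed signal of 7 erythroid markers, embryonic globins included, lay between 16.20 and 16.24 on the log2 scale in all 9 arrays. The globins, which dominate that sum, lie near the top of the array's range, and single genes did differ. In homozygous minus wild-type, Epb42, a red cell membrane protein, was at -0.62 (adjusted p = 0.000128), Alas2, the first enzyme of heme synthesis, at -0.16 (adjusted p = 0.0437) and the factor Gata1 at 0.18 (adjusted p = 0.0435, limma), and the other 4 did not pass. Epb42 was also lower in heterozygous blood, at -0.33 (adjusted p = 0.0261, limma). Markers of other cell types differed with genotype too. All 10 macrophage genes fell in homozygous blood relative to wild-type, where 14.9% of all genes were called lower and 10.7% higher. Their summed log2 signal was 11.03 to 11.05 in wild-type, 10.64 to 10.67 in heterozygous and 8.25 to 8.28 in homozygous arrays. In heterozygous minus wild-type, 4 of the 10 passed as lower and 3 had positive differences. All 6 megakaryocyte genes fell in homozygous blood as well. Their sum went from 10.21 to 10.24 in wild-type arrays down to 8.58 to 8.76 in homozygous ones, with heterozygous arrays at 10.53 to 10.59. The 5 hepatocyte markers all rose in homozygous blood, to 9.87 to 10.00 against 9.10 to 9.12 in wild-type and 8.75 to 8.84 in heterozygous blood. Muscle markers summed to 8.03 to 8.16 in heterozygous arrays and to between 6.83 and 7.05 in the others. Of the 5 muscle genes, 2 rose in heterozygous minus wild-type and 3 did not pass, where 4.79% of all genes were called higher. Neutrophil markers summed to 8.69 to 8.79, 8.05 to 8.08 and 7.62 to 7.76 in wild-type, heterozygous and homozygous arrays. Of the 6 neutrophil genes, 2 fell in homozygous and 3 in heterozygous minus wild-type, where 14.9% and 7.04% of all genes were called lower. In homozygous minus heterozygous, 4 of the 6 had positive differences, 1 passed as lower and the median was 0.18. The part of these cell types in the differences below was not tested, and in pooled blood fewer cells of a type cannot be told apart from less RNA per cell. Poly-A spike-ins, bacterial transcripts added before labelling, also differed, with mean log2 values of 10.38 ± 0.02 (wild-type), 11.26 ± 0.00 (heterozygous) and 11.96 ± 0.02 (homozygous; SD, n = 3 arrays). The array's hybridization controls were at 10.32 ± 0.01, 10.32 ± 0.04 and 10.60 ± 0.07 in the same order, so highest in homozygous arrays. The part of this in the differences below was not tested. All differences here are log2 values and relative to the rest of each array. The Cbfb probe set, whose place relative to the altered part of the gene is not known here, was at 6.01 ± 0.03, 5.77 ± 0.04 and 5.10 ± 0.16 (SD, n = 3) in wild-type, heterozygous and homozygous arrays. With spike-in means set equal, the median probe set moved by -1.58 in homozygous minus wild-type and by -0.88 in heterozygous minus wild-type, and all 32 members were then lower than wild-type in both genotypes.

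Import genes were more often higher than lower in homozygous blood. Of the 32 members, 15 rose and 3 fell against wild-type (limma, Benjamini-Hochberg adjusted p under 0.05 over 45037 probe sets), and 14 did not pass. The rising share was 46.9%, while 10.7% of all genes were called higher and 14.9% lower. Among genes with a mean of at least 5, the shares were 16.7% and 23.6%. The members' differences ranged from -0.36 to 0.73 with a median of 0.19, and the median of all genes was 0.05. The 3 arrays of each genotype did not overlap for 18 members on the higher and 4 on the lower side, against 20.9% and 18.3% of all genes.

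**Figure D1:**
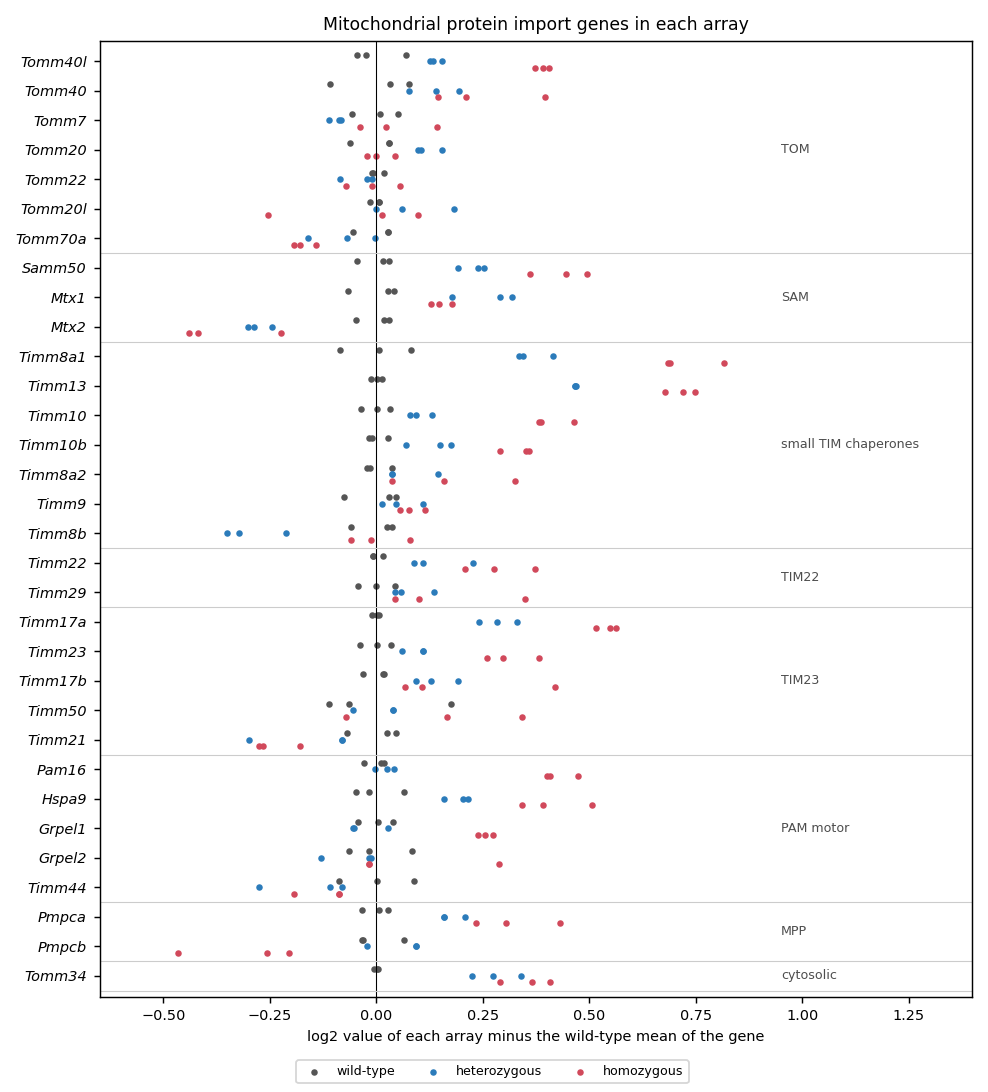
Each point is one array, as its log2 value minus the wild-type mean of the gene (x axis), for the 32 genes (y axis) ordered by complex; grey, blue and red mark wild-type, heterozygous and homozygous arrays, 3 each. The homozygous arrays of Timm8a1, Timm13 and Timm17a lie farthest to the right, and those of Mtx2 and Pmpcb farthest to the left.

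Promoters are shown for members that rose, fell or differed in heterozygous blood alone. Apart from Timm13 and Timm8a1, all those printed carry the letters CCGGAAG or their reverse complement. The selection therefore does not show how common these letters are among members that changed. Timm17a, Samm50 and Pam16 rose more than Timm10, Timm23 and Pmpca, but their windows lack these letters and are not printed. RefSeq windows of the assembly GRCm38.p6, from 250 bases before to 50 after the start, were found for 27 members (29 windows), and not for Grpel2, Hspa9, Timm21, Tomm40l and Tomm7. Those of Timm13 and Timm8a1, the genes with the largest rises, come first. They are followed by Timm10, Timm23 and Pmpca, which rose, then Pmpcb and Mtx2, which fell, and last Timm8b, which was lower in heterozygous blood. Only the 250 bases before the start are printed, 5′ to 3′ on the strand of the gene. Capitals mark CCGGAAG or its reverse complement CTTCCGG, the core of sites of ETS family factors such as GABP, and in Timm8a1 the E-box CACGTG, bound by MYC and related factors.
Timm13: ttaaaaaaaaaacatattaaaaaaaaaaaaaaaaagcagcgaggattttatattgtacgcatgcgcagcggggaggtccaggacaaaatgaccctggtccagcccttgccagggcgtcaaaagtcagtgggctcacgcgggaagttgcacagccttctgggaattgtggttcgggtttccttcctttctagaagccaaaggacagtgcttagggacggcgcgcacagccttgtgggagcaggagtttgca
Timm8a1: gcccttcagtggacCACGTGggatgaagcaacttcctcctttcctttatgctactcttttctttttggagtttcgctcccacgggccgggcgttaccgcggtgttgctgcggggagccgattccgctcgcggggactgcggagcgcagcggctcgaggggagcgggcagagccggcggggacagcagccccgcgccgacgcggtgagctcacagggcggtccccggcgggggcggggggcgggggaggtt
Timm10: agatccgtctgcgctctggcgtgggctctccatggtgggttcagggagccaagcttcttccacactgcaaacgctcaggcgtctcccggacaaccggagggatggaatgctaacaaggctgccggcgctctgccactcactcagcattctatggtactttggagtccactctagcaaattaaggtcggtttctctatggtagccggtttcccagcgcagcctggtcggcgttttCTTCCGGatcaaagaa
Timm23: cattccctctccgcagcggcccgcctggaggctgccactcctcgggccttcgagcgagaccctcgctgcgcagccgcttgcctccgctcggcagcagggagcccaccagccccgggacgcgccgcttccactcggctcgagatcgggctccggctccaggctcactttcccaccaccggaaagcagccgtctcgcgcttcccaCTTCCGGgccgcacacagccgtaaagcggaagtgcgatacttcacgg
Pmpca: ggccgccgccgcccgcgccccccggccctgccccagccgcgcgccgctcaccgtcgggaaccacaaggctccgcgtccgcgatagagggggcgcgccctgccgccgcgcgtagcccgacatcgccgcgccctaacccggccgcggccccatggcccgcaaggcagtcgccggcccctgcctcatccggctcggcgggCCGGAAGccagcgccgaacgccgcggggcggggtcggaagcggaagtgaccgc
Pmpcb: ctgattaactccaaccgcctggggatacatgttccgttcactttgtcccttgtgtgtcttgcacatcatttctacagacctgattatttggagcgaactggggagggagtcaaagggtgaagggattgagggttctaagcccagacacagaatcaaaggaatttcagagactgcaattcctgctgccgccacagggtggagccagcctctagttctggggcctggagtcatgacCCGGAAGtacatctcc
Mtx2: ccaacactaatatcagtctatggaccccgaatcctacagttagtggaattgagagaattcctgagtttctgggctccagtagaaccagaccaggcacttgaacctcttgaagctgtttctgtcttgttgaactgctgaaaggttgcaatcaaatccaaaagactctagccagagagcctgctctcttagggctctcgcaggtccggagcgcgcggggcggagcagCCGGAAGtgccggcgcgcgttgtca
Timm8b: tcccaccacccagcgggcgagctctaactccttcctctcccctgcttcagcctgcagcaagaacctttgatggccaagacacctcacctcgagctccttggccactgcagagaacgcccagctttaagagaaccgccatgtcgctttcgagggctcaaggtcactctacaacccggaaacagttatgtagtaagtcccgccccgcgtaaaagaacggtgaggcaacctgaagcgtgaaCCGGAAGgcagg
The printed windows lie at chr10:80900970-80901219 on the minus strand for Timm13, chrX:134541671-134541920 on the minus strand for Timm8a1, chr2:84826771-84827020 on the plus strand for Timm10 and chr14:32201892-32202141 on the minus strand for Timm23. Those of Pmpca at chr2:26389098-26389347, Pmpcb at chr5:21736910-21737159, Mtx2 at chr2:74825562-74825811 and Timm8b at chr9:50603651-50603900 are on the plus strand.

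The letters CCGGAAG, searched on both strands of the 300 base window, were in 15 of the 29 member windows (51.7%). They were in 8.86% of 32851 windows in the table and in 17.4% of 9953 windows of genes with a mean of at least 5. By response in homozygous blood, they were in 6 of 13 members that rose, in 2 of 2 that fell and in 6 of 12 that did not pass, so members of each kind carried them. In Timm10, Pmpcb and Mtx2 the match ended 10, 10 and 19 bases before the start. The E-box was in 5 windows (17.2%, against 10.1% of windows of genes with a mean of at least 5). The motif of the respiratory factor NRF1, GCGCA, any base and GCGC, was in 3 windows (10.3% against 9.84%), AANATGGCG, bound by YY1, in 4 (13.8% against 5.11%) and CCAAT in 8 (27.6% against 37.7%). These motifs were searched on both strands too, and a match is a description of letters, not of binding. Timm13, one of the largest rises, held no exact match to these motifs, and near matches were not searched.

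At the outer membrane, the receptors did not pass while both channel genes did. Of 7 TOM members, 2 rose (28.6%) and 5 did not pass in homozygous blood, with a median of 0.01. Of all genes, 10.7% were called higher there, and 16.7% of those with a mean of at least 5. Tomm40l, a second form of the channel protein, was at 6.29, 6.38 and 6.27 in the 3 wild-type arrays, 6.44, 6.44 and 6.47 in the heterozygous and 6.70, 6.68 and 6.72 in the homozygous arrays. The homozygous arrays lay above all others, and the gene rose by 0.39 ± 0.06 (SE; 1.31-fold, adjusted p = 0.000232, limma). A second, dimmer probe set of it gave 0.04 and did not pass. The channel gene Tomm40 itself, with means of 5.83 ± 0.10, 5.97 ± 0.06 and 6.08 ± 0.13 (SD, n = 3) in the order wild-type, heterozygous and homozygous, rose by 0.25 ± 0.08 (adjusted p = 0.0393, limma), a call that was lost in 7 of 9 fits that left out 1 array. Without homozygous replicate 1 its difference was 0.18 (adjusted p = 0.117), and without wild-type replicate 3 it was 0.20 (adjusted p = 0.152, limma).

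Tomm20, the presequence receptor, differed by 0.01 with a 95% interval of -0.11 to 0.13, and its 6 probe sets gave -0.09 to 0.01 with none past the test. Tomm22, the central receptor, differed by -0.01 (interval -0.13 to 0.12), while its second probe set gave 0.20 and did not pass. Tomm70a, the receptor for carrier proteins bound to chaperones, had means of 6.26 ± 0.05 (wild-type) and 6.09 ± 0.03 (homozygous; SD, n = 3). Its difference of -0.17 did not pass (adjusted p = 0.0675, limma), although the arrays did not overlap, and it passed with cyclic loess (-0.20, adjusted p = 0.0298, limma). The 5 probe sets of Tomm70a gave -0.24 to 0.04, with none past the test in the main fit. Tomm7, a small subunit that steadies the complex, was at 0.04, and the dim Tomm20l at -0.05. The 4 probe sets of Tomm7 ran from -0.14 to 0.23, and none passed. Tomm34, which despite its name is a cytosolic co-chaperone, stood at 8.63, 8.64 and 8.63 in wild-type, 8.86, 8.97 and 8.91 in heterozygous and 9.00, 9.04 and 8.92 in homozygous arrays. Both mutant genotypes lay above wild-type and overlapped each other, with a rise of 0.36 ± 0.06 in homozygous blood (adjusted p = 0.000684, limma).

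The sorting and assembly genes split. Samm50, the core of the SAM complex, read 9.29, 9.30 and 9.23 in wild-type, 9.51, 9.53 and 9.47 in heterozygous and 9.77, 9.63 and 9.72 in homozygous arrays. By this probe set the genotypes formed 3 steps without overlap, and the homozygous rise was 0.43 ± 0.06 (1.35-fold, adjusted p = 0.000151, limma). The 3 probe sets of Samm50 gave 0.11 to 0.43 in homozygous minus wild-type, of which 2 passed. In heterozygous minus wild-type they gave -0.02 to 0.23, of which 1 passed. Mtx2, a metaxin that lies with Mtx1 and Samm50 at the outer membrane, had 8.68, 8.75 and 8.76 in wild-type, 8.44, 8.48 and 8.43 in heterozygous and 8.51, 8.29 and 8.31 in homozygous arrays. It fell by 0.36 ± 0.07 on the log2 scale in homozygous blood (adjusted p = 0.00183, limma), the largest fall among the members. Mtx1 had its highest mean in heterozygous arrays, 9.88 ± 0.07, against 9.62 ± 0.06 in wild-type and 9.77 ± 0.02 in homozygous ones (SD, n = 3). Its homozygous difference of 0.15 did not pass by this probe set (adjusted p = 0.107, limma), while its other probe set gave 0.19 and did (adjusted p = 0.0455).

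The small TIM chaperones held the largest rises of the whole set. Of 7 members, 4 rose (57.1%) and none fell in homozygous blood, with a median of 0.33. Among all genes with a mean of at least 5, 16.7% were called higher. Timm8a1, which forms a chaperone with Timm13, read 8.07, 8.00 and 7.91 in wild-type, 8.33, 8.41 and 8.34 in heterozygous and 8.81, 8.68 and 8.68 in homozygous arrays. Its rise was 0.73 ± 0.06 (1.66-fold, adjusted p = 5.2e-06, limma), and a second probe set gave 0.86. Timm13, the partner, read 8.96, 8.99 and 8.97 in wild-type, 9.44 in all 3 heterozygous arrays and 9.72, 9.69 and 9.65 in homozygous arrays. It rose by 0.72 ± 0.05 (1.64-fold, adjusted p = 1.04e-06, limma). For both genes the heterozygous arrays lay between the other genotypes without overlap.

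Timm10, which with Timm9 forms the main carrier chaperone, was at 9.56, 9.53 and 9.49 in wild-type, 9.62, 9.66 and 9.61 in heterozygous and 9.99, 9.92 and 9.91 in homozygous arrays. The homozygous arrays stood well apart, with a rise of 0.41 ± 0.05 (adjusted p = 0.000148, limma). Timm10b, a chaperone bound to TIM22, was at 8.69, 8.66 and 8.65, then 8.84, 8.82 and 8.74, then 9.03, 9.02 and 8.96, and rose by 0.33 ± 0.06 (adjusted p = 0.000859, limma). Of its 4 probe sets, 3 passed, at up to 0.47. Timm8b, a relative of Timm8a1, differed by 0.00 (interval -0.14 to 0.14). Timm9 and Timm8a2 were dim, at 2.65 and 1.86 in wild-type blood, with differences of 0.08 and 0.17 that did not pass. Timm8a1 is X-linked, and the X inactivation transcript Xist had homozygous minus wild-type values of 1.22 in its brightest probe set and of -0.28 and -0.24 in the others. The Y-linked gene Eif2s3y was highest in wild-type arrays with a mean of 6.12, and its means were 4.73 (heterozygous) and 5.65 (homozygous), and the part of the pools' sex ratio in the Timm8a1 result was not tested.

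Of the 2 TIM22 members, Timm22, the carrier channel, with means of 6.58 ± 0.01, 6.72 ± 0.07 and 6.87 ± 0.08 (SD, n = 3), rose by 0.29 ± 0.06 (adjusted p = 0.00613, limma). Its second probe set gave -0.03 and did not pass. Timm29, a subunit linking it to the outer membrane, was at 0.16 (adjusted p = 0.176, limma).

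In TIM23, the presequence translocase, 2 of 5 members rose (40%) and 1 fell (20%) in homozygous blood. Among all genes with a mean of at least 5, 16.7% were called higher and 23.6% lower. Timm17a, a channel subunit, read 7.11, 7.12 and 7.13 in wild-type, 7.36, 7.45 and 7.40 in heterozygous and 7.68, 7.64 and 7.67 in homozygous arrays. These are 3 separate steps, and the homozygous rise was 0.54 ± 0.05 (1.46-fold, adjusted p = 1.19e-05, limma). Timm23, its channel partner, had 9.50, 9.42 and 9.46 in wild-type, 9.57, 9.57 and 9.52 in heterozygous and 9.84, 9.72 and 9.76 in homozygous arrays. It rose by 0.31 ± 0.06 (adjusted p = 0.00158, limma). Timm17b, the X-linked alternative to Timm17a, was at 0.20 and did not pass (adjusted p = 0.133, limma), with homozygous replicate 1 at 9.42 and the others at 9.06 and 9.11. A second probe set of Timm17b gave -0.08 and did not pass. Timm21, which links TIM23 to TOM and the respiratory chain, had means of 5.69 ± 0.06, 5.54 ± 0.13 and 5.45 ± 0.05 (SD, n = 3) and fell by 0.24 ± 0.07 on the log2 scale (adjusted p = 0.0334, limma). That call was lost in 4 of 9 fits that left out 1 array, namely without homozygous replicates 1 or 3 or wild-type replicates 1 or 3, with adjusted p = 0.0795, 0.0942, 0.11 and 0.0989 (limma).

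Timm50, the receptor of TIM23, depended on the probe set. The one with the highest mean gave 0.15 ± 0.10 and did not pass (adjusted p = 0.369, limma). The others gave 0.27, and 0.80 at a wild-type mean of 7.12 ± 0.08 and a homozygous mean of 7.92 ± 0.06 (SD, n = 3), and both passed. The brightest probe set also had the wider spread, with an SD of 0.15 in wild-type and 0.21 in homozygous arrays. With the mean of all its probe sets Timm50 rose by 0.41 (adjusted p = 0.000175, limma).

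**Figure D2:**
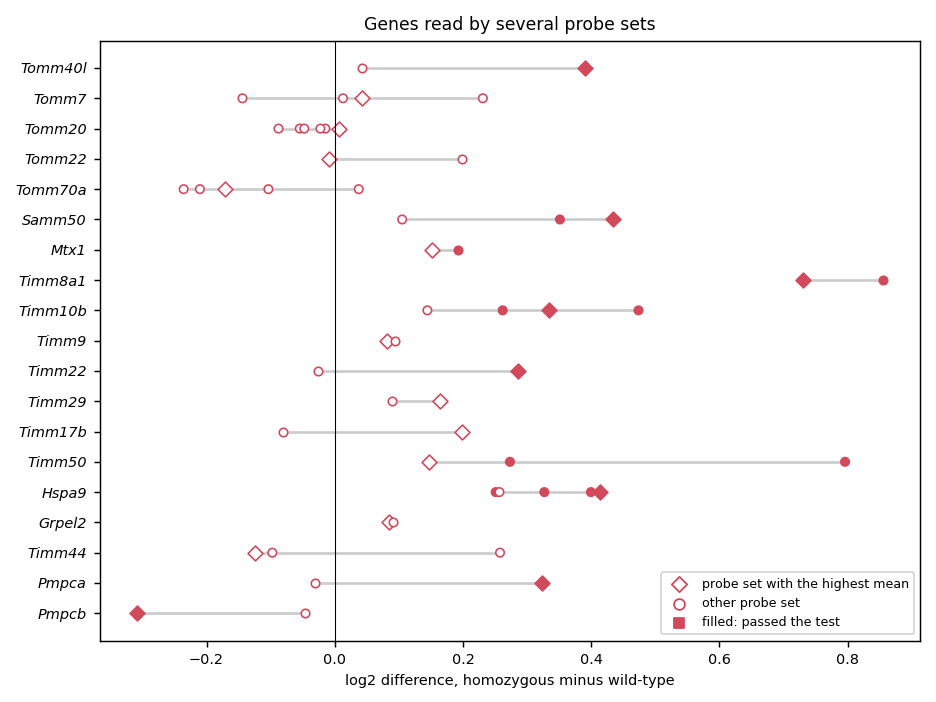
Log2 difference of homozygous minus wild-type blood (x axis) for each probe set of the 19 genes read by more than 1 (y axis); diamonds mark the probe set with the highest mean, circles the others, and filled symbols those past the test. Probe sets of Timm50 spread from 0.15 to 0.80, whereas those of Tomm20 stay between -0.09 and 0.01.

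The PAM motor rose in 3 of 5 members (60%) in homozygous blood, against 16.7% of all genes with a mean of at least 5. Pam16, which reins in the motor's J protein, read 9.08, 9.09 and 9.04 in wild-type, 9.10, 9.11 and 9.07 in heterozygous and 9.55, 9.47 and 9.48 in homozygous arrays. Wild-type and heterozygous arrays overlapped while the homozygous arrays stood above, with a rise of 0.43 ± 0.05 (1.34-fold, adjusted p = 8.68e-05, limma). Hspa9, the matrix Hsp70 that pulls the chain inward, had 7.08, 7.00 and 6.97 in wild-type, 7.23, 7.22 and 7.17 in heterozygous and 7.52, 7.41 and 7.36 in homozygous arrays. It rose by 0.41 ± 0.06 (adjusted p = 0.00037, limma), and 4 of its 5 probe sets passed in that direction. Grpel1, the nucleotide exchange factor of this Hsp70, was at 8.99 ± 0.04, 8.96 ± 0.05 and 9.24 ± 0.02 (SD, n = 3) and rose by 0.26 ± 0.06 (adjusted p = 0.00527, limma), and its relative Grpel2 was at 0.08. Timm44, which tethers the motor to the channel, was at -0.12, and its 3 probe sets ran from -0.12 to 0.26 with none past the test. Dnajc19, the motor's J protein, was read only by probe sets shared with its pseudogene Dnajc19-ps, and the bright one was lower than wild-type in both mutant genotypes, at -0.36 in homozygous (adjusted p = 0.00144) and -0.56 in heterozygous blood (adjusted p = 0.000241, limma).

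The subunits of the processing peptidase went opposite ways by their brightest probe sets. Pmpca, the alpha subunit, read 7.04, 7.08 and 7.11 in wild-type, 7.24, 7.24 and 7.29 in heterozygous and 7.51, 7.38 and 7.31 in homozygous arrays, and rose by 0.32 ± 0.06 (adjusted p = 0.00242, limma). Pmpcb, the catalytic beta subunit, read 6.30, 6.40 and 6.30 in wild-type, 6.43, 6.31 and 6.43 in heterozygous and 6.08, 5.87 and 6.13 in homozygous arrays. It fell by 0.31 ± 0.07 on the log2 scale (adjusted p = 0.0109, limma), and without wild-type replicate 2 the difference was -0.28 (adjusted p = 0.052, limma). Each gene has a second probe set that did not pass, at -0.03 for Pmpca and -0.05 for Pmpcb.

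With 1 copy of the allele, the small TIM chaperone genes Timm13 and Timm8a1 again had the largest rises. Of the 32 members, 6 rose and 2 fell against wild-type, where 4.79% of all genes were called higher and 7.04% lower (7.90% and 11.7% among genes with a mean of at least 5). The members' median was 0.09. Arrays did not overlap for 16 members on the higher and 4 on the lower side, against 14.2% and 15.7% of all genes. Timm13 rose by 0.47 ± 0.05 (adjusted p = 0.000203), Timm8a1 by 0.36 ± 0.06 (adjusted p = 0.00384) and Timm17a by 0.28 ± 0.05 (adjusted p = 0.00541, limma). Tomm34 rose by 0.28, Mtx1 by 0.26 and Samm50 by 0.23 (adjusted p = 0.0304, limma). The Samm50 value rests on 1 probe set of a type that can cross-hybridize: its second probe set gave 0.077 (adjusted p = 0.526), the mean of its probe sets 0.095 (adjusted p = 0.176), and the replicate block left 0.23 at adjusted p = 0.0536 (limma). In homozygous minus wild-type that second probe set gave 0.35 and passed. Those that fell were Timm8b at -0.30 ± 0.06 (adjusted p = 0.0121) and Mtx2 at -0.28 ± 0.07 (adjusted p = 0.0227, limma). The count of 8 dropped to 4 without heterozygous replicate 2 and to 5 without heterozygous replicate 1, wild-type replicate 2 or wild-type replicate 3. Calls of Timm13, Timm8a1, Timm17a and Tomm34 held in all 9 of these fits, and those of Samm50, Mtx2, Mtx1 and Timm8b were lost in 6, 5, 3 and 3 of them. When 8 reference genes were made equal across arrays, 2 members were higher and 6 lower, because that scaling moved the median probe set by -0.13. None of the TOM, TIM22, PAM motor or MPP members passed in heterozygous blood, with Hspa9 at 0.19 (adjusted p = 0.0883) and Pam16 at 0.02 (interval -0.10 to 0.14, limma).

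**Figure D3:**
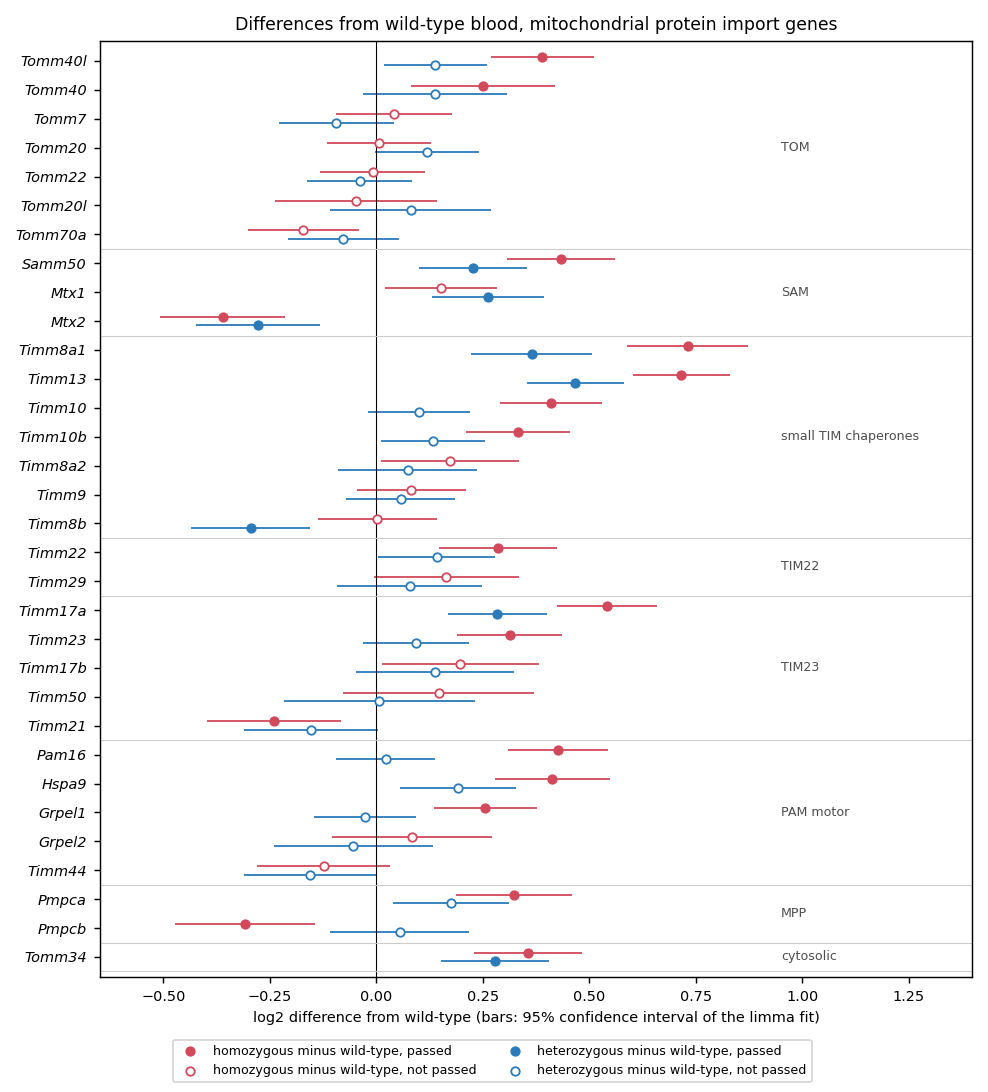
Log2 difference from wild-type (x axis) for the 32 genes (y axis), in red for homozygous and blue for heterozygous blood, with 95% intervals of the limma fit; filled points passed the test. Timm13, Timm8a1, Timm17a, Samm50, Mtx2 and Tomm34 are filled in both colours, and Timm8b and Mtx1 only in blue; both sets of differences use the same 3 wild-type arrays.

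The direct comparison of homozygous with heterozygous blood called 12 members higher and 1 lower, where 5.38% and 10.4% of all genes were called (8.27% and 16.3% among genes with a mean of at least 5), with a median of 0.14. Arrays did not overlap for 14 members on the higher and 2 on the lower side, against 15.7% and 15.4% of all genes. With the reference genes set equal, 25 members were higher and 0 lower, because that scaling moved the median probe set by 0.16. The differences that passed were led by Pam16 at 0.41 ± 0.05 (adjusted p = 0.0003), Timm8a1 at 0.37 ± 0.06 (adjusted p = 0.00265) and Timm10 at 0.31 ± 0.05 (adjusted p = 0.0026, limma). Timm8b had means of 8.48 ± 0.05 (wild-type), 8.18 ± 0.07 (heterozygous) and 8.48 ± 0.07 (homozygous; SD, n = 3), and its homozygous minus heterozygous difference was 0.30 (adjusted p = 0.00883). Pmpcb was the lower one, at -0.36 ± 0.07 (adjusted p = 0.007, limma). Tomm34 and Mtx2 differed by 0.08 and -0.08 and did not pass. Calls of Samm50 and Timm10b were each lost in 8 of 9 fits without 1 array, that of Hspa9 in 7 and that of Timm23 in 4.

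The heterozygous level was also set against the midpoint of the other genotypes. It was off the midpoint for Timm8b, at -0.30 (adjusted p = 0.0104), and for Pam16, at -0.19 (adjusted p = 0.0431, limma), and no other member passed. Of all genes, 3.64% were called above the midpoint and 1.53% below it. The 2 calls became 0 without heterozygous replicate 2 or 3, and 1 without heterozygous replicate 1, homozygous replicate 2 or 3, or any wild-type array. For Timm8a1 the deviation was 0.00 ± 0.06 and for Timm17a it was 0.01 ± 0.05 (SE).

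Ratios within an array do not depend on its scale and are given for pairs of relatives or partners, without a test. Timm8a1 over Timm8b went from -0.49 ± 0.05 in wild-type to 0.17 ± 0.11 (heterozygous) and 0.24 ± 0.02 (homozygous; log2, SD, n = 3), so both mutant groups lay above wild-type and overlapped each other. Mtx1 over Mtx2 moved likewise, from 0.89 ± 0.09 in wild-type to 1.43 ± 0.06 and 1.41 ± 0.14. Pmpca over Pmpcb was 0.74 ± 0.06, 0.86 ± 0.06 and 1.38 ± 0.17, and the 3 groups did not overlap. That change is seen in the brightest probe sets only. The second probe sets of Pmpca and Pmpcb gave nearly equal homozygous minus wild-type differences, -0.03 and -0.05. For Timm17a over Timm17b the ratios were -1.88 ± 0.02, -1.73 ± 0.06 and -1.53 ± 0.17. The groups overlapped for Tomm40 over Tomm40l and for Grpel1 over Grpel2, where homozygous minus wild-type was -0.14 and 0.17. A probe set's level cannot be compared with another's, so only the change of a ratio between genotypes is readable.

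**Figure D4:**
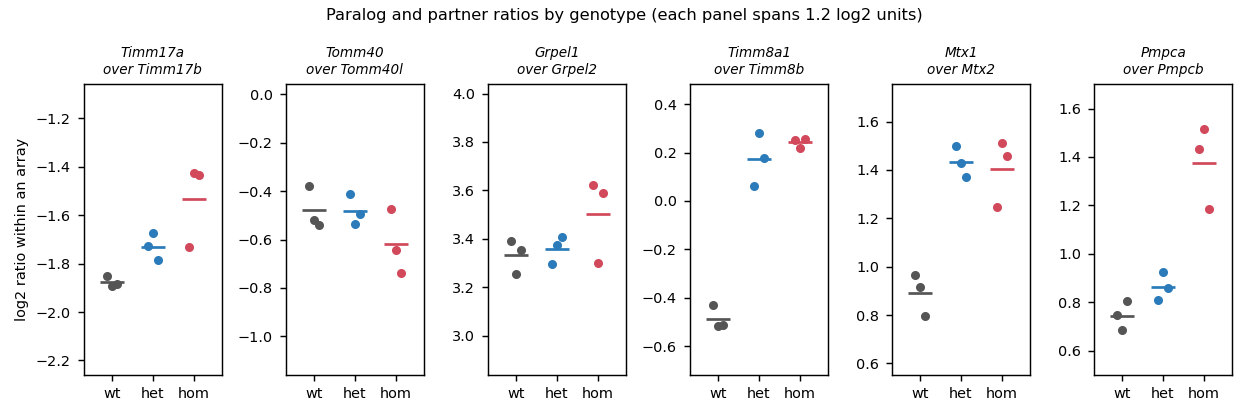
Log2 ratio of 2 genes within each array (y axis) by genotype (x axis; wt, het and hom are wild-type, heterozygous and homozygous), 1 point per array and a line at the mean of 3. Every panel spans the same range on the y axis; the step between wild-type and both mutant genotypes is seen for Timm8a1 over Timm8b and for Mtx1 over Mtx2.

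Beyond these complexes, 38 of 42 other genes of import and protein processing in mitochondria were measured. In homozygous blood 14 rose (36.8%) and 10 fell (26.3%), with a median of 0.11. Over all genes the shares were 10.7% and 14.9%, and 16.7% and 23.6% among those with a mean of at least 5. Atad3a, an inner membrane ATPase, rose by 1.13 (adjusted p = 7.73e-08, limma) and Hspe1, the small partner of the matrix chaperonin, by 0.90. Clpx, which unfolds substrates for the matrix protease, fell by 0.94 on the log2 scale and Hscb, a co-chaperone of iron-sulfur cluster transfer, by 0.79. Chchd4, the oxidoreductase that folds small TIM proteins, was picked out after its values were seen because it acts on members, and rose by 0.39 ± 0.05 (adjusted p = 0.00014, limma). In heterozygous blood 7 of the 38 rose (18.4%) and 5 fell (13.2%). Over all genes these shares were 4.79% and 7.04%, and 7.90% and 11.7% among those with a mean of at least 5. The heterozygous calls were led by Atad3a at 0.73, Yme1l1, an inner membrane protease, at -0.70, Hspe1 at 0.65 and Clpx at -0.61.

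Of 21 genes of mitochondrial mass and shape, 6 rose and 6 fell in homozygous blood (28.6% each), with a median of 0.10. The shares were 10.7% higher and 14.9% lower over all genes, and 16.7% and 23.6% among those with a mean of at least 5. The matrix enzyme Mdh2 rose by 0.77 and Tufm, the mitochondrial translation elongation factor, by 0.56. The fission gene Dnm1l was at -1.10 and the inner membrane fusion gene Opa1 at -0.55, and both calls passed. In heterozygous blood 5 rose (23.8%) and 3 fell (14.3%). Over all genes these shares were 4.79% and 7.04%, and 7.90% and 11.7% among those with a mean of at least 5. The heterozygous calls were led by Mdh2 at 0.37 and Tufm at 0.33, with Chchd3, a cristae subunit, at -0.31 and the fission gene Fis1 at -0.30.

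Of 18 regulators of mitochondrial biogenesis and stress, 5 rose (27.8%) and 4 fell (22.2%) in homozygous blood, with a median of 0.11. Shares over all genes were 10.7% and 14.9%, and 16.7% and 23.6% among those with a mean of at least 5. The stress factor Atf5 rose by 0.86 and Pprc1, a PGC-1-related coactivator, by 0.69. Gabpa, the DNA-binding subunit of GABP, was at -0.88 ± 0.13 (adjusted p = 0.00034, limma), and Yy1 at -0.61. In heterozygous blood 2 rose (11.1%) and 1 fell (5.56%), where 4.79% of all genes were called higher and 7.04% lower. Among genes with a mean of at least 5, these shares were 7.90% and 11.7%. Pprc1 and Myc rose by 0.44 and 0.27 in heterozygous blood, and Atf4 was at -0.25.

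**Figure D5:**
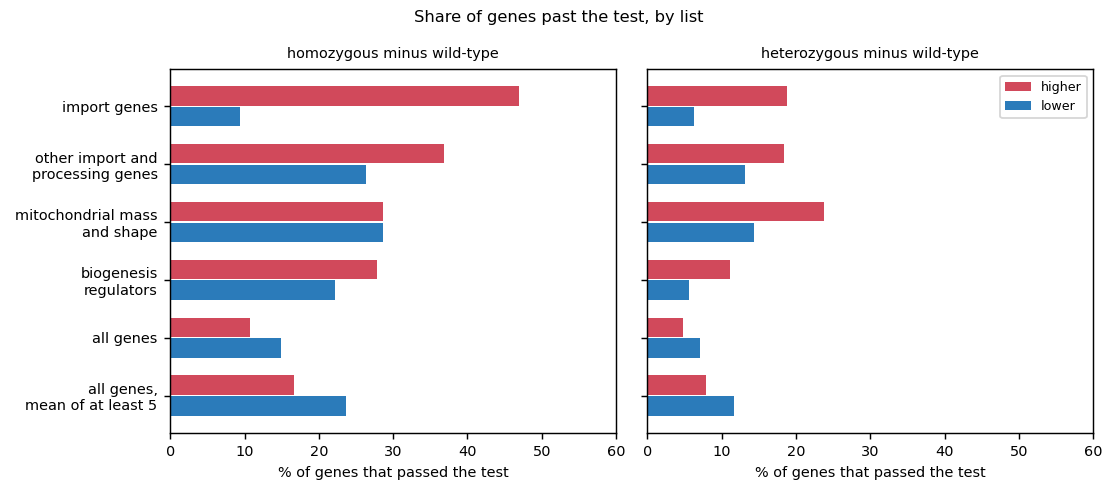
Share of genes past the test (x axis, in %) that were higher (red) or lower (blue) than wild-type, for the 32 import genes, 3 other lists, all genes and those with a mean of at least 5 (y axis), in homozygous (left) and heterozygous blood (right). In homozygous blood 46.9% of import genes were higher and 9.38% lower, against 10.7% and 14.9% of all genes.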

How the data were processed

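Blood RNA of 3 genotypes was read on 9 Affymetrix arrays, and the authors deposited 1 table of 45101 probe sets. Software listed in the submitters' processing notes is Expression Console 1.0, Partek 6.5 and RMA, with no roles given. The deposited values, from 1.49 to 14.56, were taken as log2 from that range and the naming of RMA. Scanner files were not used here; precision is limited by the number of arrays.

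After removal of 64 controls, limma 3.58.1 (R 4.3.3) was run on 45037 probe sets with genotype as the factor and every array included, 2-sided, with Benjamini-Hochberg adjustment over all probe sets and a threshold of 0.05. Genes were named through the platform annotation where a probe set gave 1 symbol (34945 probe sets, of which 34741 matched RefSeq and 0 changed symbol). Same-numbered arrays did not deviate together (r = -0.02 to 0.07), so replicate numbers were not treated as pairs. On simulated homozygous and wild-type arrays, 10% of 50 changes of 0.25 and 46% of 50 changes of 0.5 were recovered among 45037 probe sets, with 3 false calls. The changed probe sets were drawn at random, dim ones included, and were far fewer than the 9019 called in homozygous minus wild-type. The adjustment was therefore stricter than in the data, and these shares do not give the recovery for members.

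Members and lists were chosen with earlier results of these data known. Array values are printed for the 14 called members with the largest difference from wild-type, and from each other list the 4 called genes with the largest change are named. Alternatives covered normalization, probe set choice, variance model, threshold and leaving out each array. Figures were drawn with matplotlib 3.10.9.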

Additional observations from a re-analysis of the deposited data

Results flagged for a closer look

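Probe sets that name a member together with another gene were outside the comparisons, and signal in 2 of them was higher in homozygous than wild-type arrays. The one annotated to Tomm5 and Gm8069 differed by 0.49 (adjusted p = 8.4e-05, limma), and one annotated to Tomm6 and Prickle4 by 0.39 (adjusted p = 0.000324, limma). A second probe set of Tomm6 and Prickle4 gave 0.17 and did not pass (adjusted p = 0.0509, limma). In the opposite direction, the bright probe set of Dnajc19 and Dnajc19-ps was at -0.36 in homozygous (adjusted p = 0.00144) and -0.56 in heterozygous minus wild-type (adjusted p = 0.000241, limma), and its 2 dim ones did not pass. Which of the genes named gave the signal cannot be told apart.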

How the results depend on the processing

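Of the 18 members called in homozygous minus wild-type, 15 kept call and direction under 22 alternatives other than second probe sets (21 where their probe set was left out), with the spike-in and reference gene scalings read relative to the median of all probe sets; Tomm40, Timm21 and Pmpcb did not. Read without that centring, equal poly-A spike-ins turned the 15 rises into falls: 32 members were called in each of the 3 comparisons, all lower, with medians of -1.40, -0.80 and -0.56 (homozygous minus wild-type, heterozygous minus wild-type, homozygous minus heterozygous) and 45035, 44962 and 44941 probe sets called; the midpoint contrast called 6 members. Equal reference genes gave medians of -0.041 (heterozygous minus wild-type) and 0.30 (homozygous minus heterozygous), 25 members in the latter, 7287 and 21850 probe sets, and 14 members off the midpoint. Quantile normalization moved the homozygous minus wild-type median to 0.27, and leaving out cross-hybridizing probe set types to 0.25 (without Mtx2, Pam16 and Timm8a2, which then have no probe set). The midpoint contrast called 1 member with array medians, without those types and by second probe sets, 6 with an intensity trend and 5 with the mean of a gene's probe sets. That mean called 5291, 2315 and 3231 genes, against 9019, 3855 and 5459 probe sets, since fewer features were tested. A threshold of 0.01 left 4 members and 2153 probe sets in heterozygous minus wild-type, 8 and 3057 in homozygous minus heterozygous, and 0 off the midpoint. An alternative chosen after seeing the data read 19 members by their second brightest probe set: 6, 2 and 5 were called, against 18, 8 and 13 of 32, with medians of 0.090 and 0.054 for homozygous minus wild-type and minus heterozygous. Under it Pmpca and Timm22 reversed to -0.031 and -0.026 in homozygous minus wild-type, and Tomm40l to -0.049 in homozygous minus heterozygous; the cause was not tested. Without 1 array, member calls were 16 to 18, 4 to 9 and 9 to 12, the homozygous minus wild-type median was 0.18 to 0.25, and 0 to 2 members lay off the midpoint. With the replicate block, members called were 18, 7 and 11, probe sets 8905, 3571 and 5199, and 1 member lay off the midpoint. With only the 2 groups compared, the midpoint contrast could not be fitted. Signal over background was not given, so the 3 dim members limit what can be read.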
